A study of Mus musculus with 68 samples.

Results

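PP2A (protein phosphatase 2A) is a serine/threonine phosphatase built from a catalytic, a scaffold and a regulatory subunit, and 10 mouse genes for its subunits and its activator were followed in single dopamine neurons. The 10 members were every gene of the deposited table whose symbol was Ppp2ca, Ppp2cb, Ppp2r1a, Ppp2r1b, Ppp2r2a, Ppp2r2b, Ppp2r2c, Ppp2r2d, Ppp2r4 or Ppp2r5c, out of 36172 genes in all. Each symbol matched 1 row, and each member had a count in at least 31 of the 68 cells. The rule used the symbols only and no measured value, but Ppp2r2a and Ppp2r4 are also in the study's own table of changed genes, which was made on these same cells.

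The cells were neurons of the ventral tegmental area (VTA), a midbrain nucleus that holds dopamine neurons, of year-old male and female mice. 33 cells came from 3xTg mice and 35 from WT mice. The 3xTg line (3xTg-AD), a mouse model of Alzheimer's disease, was homozygous for its humanized transgenes, among them APP with the Swedish mutation and mutant Tau, and WT was a separate line kept on the same hybrid background without the transgenes. Each neuron was patched in a brain slice, its tail current was recorded, and its contents were drawn into the pipette and sequenced (Patch-seq). Each deposited sample is 1 cell and no label names the mouse, so each genotype was taken as 1 sample. No test between genotypes was therefore made, and each SD given is the spread from cell to cell and tells nothing of mice.

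In PP2A the scaffold (A) subunit holds the catalytic (C) subunit and 1 regulatory (B) subunit, and the B subunit sets where the enzyme goes and which proteins it dephosphorylates. The B subunits fall into families, of which B55 (genes Ppp2r2a to Ppp2r2d) and B56 (genes Ppp2r5a to Ppp2r5e) are those of the members. In neurons PP2A is the major phosphatase of the microtubule protein tau. It is also bound to SK channels, calcium-activated potassium channels that slow firing, where it removes the phosphate that casein kinase 2 (CK2) puts on the calmodulin of the channel.

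The catalytic subunits are made by a pair of genes, Ppp2ca (chr11:52098824-52122749, plus strand) and Ppp2cb (chr8:33599621-33619804, plus strand), with coordinates of mm10 as in the deposited table. The last 60 coding bases of each are shown because they encode the tail of the catalytic subunit, which ends in the leucine that is methylated by the enzyme of Lcmt1 and demethylated by that of Ppme1, both described further on. They are taken 5′ to 3′ from the GENCODE M21 transcripts (GRCm38, the assembly of mm10), coding bases 868 to 927, at chr11:52121912-52121971 for Ppp2ca and chr8:33619132-33619191 for Ppp2cb, both on the plus strand and within 1 exon. Capitals mark the 8 bases that differ between the genes.
Ppp2ca: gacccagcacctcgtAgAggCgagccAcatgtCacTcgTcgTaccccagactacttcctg
Ppp2cb: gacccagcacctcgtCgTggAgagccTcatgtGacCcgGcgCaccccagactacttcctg

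Reads of such a pair can only be told apart where the sequences differ. Over the whole coding sequence of 927 bases the genes had 757 bases in common (81.7%), and their longest run of identical bases was 25. No stretch of 100 coding bases, the length of 1 read, was identical at 90 or more positions, and the most alike stretch, coding bases 160 to 259, was identical at 86. It lies at chr11:52113177-52113276 in Ppp2ca and chr8:33610712-33610811 in Ppp2cb, and capitals again mark the bases that differ.
Ppp2ca: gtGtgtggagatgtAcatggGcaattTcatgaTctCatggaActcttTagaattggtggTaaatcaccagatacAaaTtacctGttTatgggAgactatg
Ppp2cb: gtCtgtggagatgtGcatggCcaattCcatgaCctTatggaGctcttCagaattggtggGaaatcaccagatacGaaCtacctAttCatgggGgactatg

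The scaffold pair Ppp2r1a and Ppp2r1b was 76.5% identical over 1767 aligned coding bases, and 5 of 1875 windows of 100 bases reached 90 identical bases. Among the B55 genes identity ran from 71.6% (Ppp2r2a and Ppp2r2c) to 77.3% (Ppp2r2a and Ppp2r2d), and 2 of the 1254 windows of Ppp2r2b and Ppp2r2c reached 90. The deposited counts were estimated counts, and 55.3% of all values above 0 were not whole (tolerance 0.001). Among members the share was 24.4% of the values above 0 for Ppp2ca, 56.8% for Ppp2cb and 82.1% for Ppp2r1a. How the counting split such reads is not given in the sources used here.

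All 68 cells held counts of Th, Slc6a3 and Slc18a2, the genes for dopamine synthesis, reuptake and vesicular loading, but the study had kept cells for these markers, so this is no separate check of the label. The total count per cell ran from 676556 to 1678624 in 3xTg and from 492505 to 1327367 in WT, and the median number of genes with a count was 8511 in 3xTg and 7476 in WT. Marker lists of glia had higher summed levels in WT, to which single cells gave large parts. In CPM (counts per 1000000 counts of the genotype) these were 118 in 3xTg and 408 in WT for 5 microglia markers and 94.1 and 292 for 5 oligodendrocyte markers, while the 5 astrocyte markers summed to 514 counts in 3xTg and 5567 in WT (3568 without the cell WT 5). Without the cell 3xTg 43, which gave 58.2% of the 3xTg counts, the microglia markers stood at 50.2 CPM in 3xTg. The markers of a list did not all go 1 way. Cx3cr1 summed to 522 counts in 3xTg and 402 in WT, Gfap to 56 and 31, and Mog to 54 and 0. The other glia markers with a count were lower in 3xTg, and C1qb gave 10935 of the 13867 microglia counts in WT. In the middle cell the microglia sum was 29.6 CPM in 3xTg and 23.7 in WT, the other way round, and 3 of 4 endothelial markers and the astrocyte marker Aldh1l1 were at 0 in every cell. Per cell the microglia sum ran from 0 to 3642 CPM in 3xTg and from 0 to 2866 in WT, and the member differences are given further on without the cells that held counts of some of these markers. The sample labels hold a number that lies in runs of 1 genotype, 3xTg 24 to 55 (21 cells) and 76 to 92 (12 cells), WT 1 to 22 (17 cells) and 57 to 74 (15 cells), with 3 more WT cells at 94 to 96. The meaning of these numbers is not given in the sources used here. The median number of genes with a count was 7648 in 3xTg 24 to 55 and 5233 in WT 1 to 22. It was 9308 in 3xTg 76 to 92 and 8441 in WT 57 to 74. At least 7000 genes were found in 12 of 21 and 6 of 17 cells of the former, and in 12 of 12 and 12 of 15 of the latter. Each run holds 1 genotype only, so genotype and run cannot be told apart, and the differences of the members are given for the first runs, the second runs and all cells.

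To set the levels of different genes side by side, they were taken as CPM per kilobase of transcript inside the interval that the deposited table gives for the gene. Ppp2r1a, the main scaffold gene, was the highest member in both genotypes, at 256 CPM per kilobase in 3xTg and 169 in WT. Ppp2r2b, a B55 gene known for its expression in brain, came second at 90.3 and 70.03, but with the coding length Ppp2r4 was second in 3xTg, at 169 CPM per kilobase against 137. At the low end stood Ppp2r1b, at 9.09 CPM per kilobase in 3xTg and 6.70 in WT, and Ppp2r2c, at 7.64 and 8.90. The other 6 members lay between 16.4 (Ppp2r2d) and 63.4 (Ppp2r4) in 3xTg and between 21.04 (Ppp2r2a) and 37.5 (Ppp2cb) in WT, and no order among them was read. The place of Ppp2ca depends on the length used, since its whole GENCODE transcript has 7102 bases and 1930 of them lie in the interval of the deposited table, which gives 33.8 CPM per kilobase in 3xTg with the shorter length and 9.19 with the longer. Ppp2r1a stayed first in both genotypes with the whole transcript and with the coding length.

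Each gene was compared between genotypes in a pair of ways. The first averaged log2(normalized count + 1) over the cells of a genotype, where a normalized count is the count divided by the size factor of its cell, and it gives each cell the same weight. The second was the log2 ratio of the counts summed over the cells of a genotype, each as CPM, with an exact 95% interval that covers counting error only. By the mean over cells 9 of the 10 members were higher in 3xTg, beside 74.03% of the 8086 genes described next, and 6 of 10 by at least 2-fold (1 on the log2 scale), with a median of 1.21. A set of 8086 genes reached a normalized count of 1 in 40% or more of all cells. Of these, 28.4% were at least 2-fold higher in 3xTg by the same measure and 0.655% at least 2-fold lower, and the median gene stood at 0.53. By summed counts 1 of 10 members, Ppp2r4, was at least 2-fold higher and none was 2-fold lower, beside 5.22% and 6.43% of those genes, and the median was 0.31 for the members and −0.04 for all 8086 genes. The share of members past 2-fold, 6 of 10, was thus above the background of 28.4% by the mean over cells, while by summed counts it rested on 1 gene. Counted from the median gene in place of 0, 2 of 10 members were at least 2-fold higher by the mean over cells, beside 11.2% of the genes, and these were Ppp2r4 and Ppp2r2a, both in the study's table. The share past 2-fold from 0 moved with the run. It was at the background in the first runs, with 3 of 10 members beside 29.3% of genes, and above it in the second, with 8 of 10 beside 37.5%. A narrower set of 3988 genes, found in 80% or more of the 3xTg cells or of the WT cells, held 27.7% at least 2-fold higher and 0.527% at least 2-fold lower, but only 5 members passed that filter, and a gene can pass it through the genotype in which it is high.

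**Figure D1:**
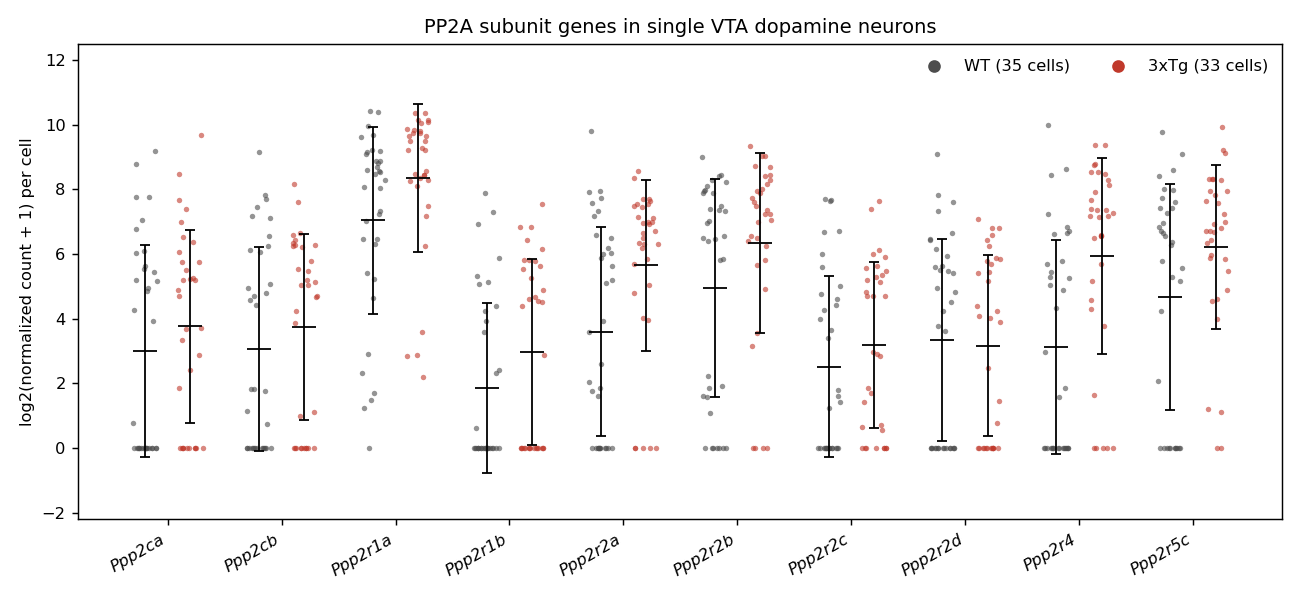
Level of each of the 10 PP2A genes in every cell, as log2(normalized count + 1) on the vertical axis, for 35 WT cells (grey) and 33 3xTg cells (red). Each point is a cell, the long horizontal mark is the mean and the bars are 1 SD across cells. Every gene but Ppp2r1a has a row of cells at 0 in both genotypes, and the ranges of the genotypes overlap for all 10.

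**Figure D2:**
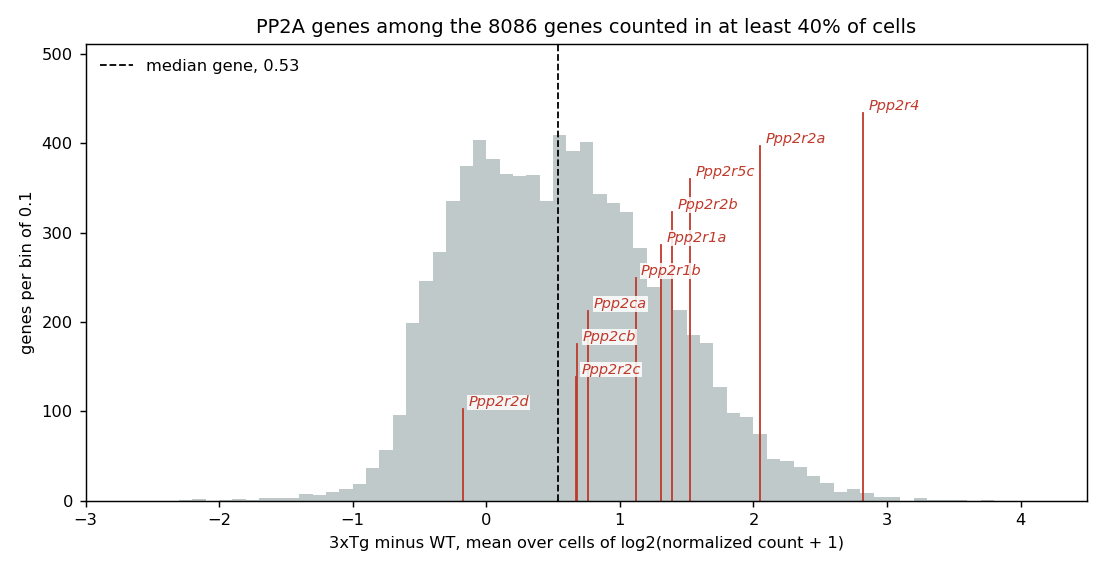
Histogram of the difference 3xTg minus WT, averaged over cells as log2(normalized count + 1), for the 8086 genes found in at least 40% of cells, in bins of 0.1, with the 10 PP2A genes marked in red and the median gene (0.53) dashed. Ppp2r4 at 2.82 and Ppp2r2a at 2.05 lie in the upper tail, and Ppp2r2d at −0.17 is the only PP2A gene below the median gene.

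Over all cells neither catalytic gene differed by 2-fold by either measure, while in the second runs both did by the mean over cells. By summed counts Ppp2ca stood at 0.63 in the first runs and 0.09 in the second, and Ppp2cb at −1.27 and 1.12. For Ppp2ca the normalized count ran from 0 to 819 in 3xTg with a median of 25.2, and in WT from 0 to 588, with a median of 0.730. A count was present in 23 of 33 cells in 3xTg (69.7%, 95% exact Clopper-Pearson interval 51.3 to 84.4) and 18 of 35 in WT (51.4%, 33.99 to 68.6). These intervals overlap, but here and for the other shares of cells they take cells as independent draws and tell nothing of mice. Among cells with a count the difference went the other way, at −0.44, with medians of 37.7 in 3xTg and 47.2 in WT. The mean over cells was 3.77 ± 2.99 (SD, n = 33) in 3xTg against 3.01 ± 3.27 (SD, n = 35) in WT, which differ by 0.76 that is 0.23 above the median gene. It was 0.59 in the first runs and 1.34 in the second. The summed counts were 2395 and 1853, a log2 ratio of 0.26 (0.17 to 0.35), of which the single cell 3xTg 38 gave 31.8% of the 3xTg counts. Without that cell the ratio was −0.24, so the direction of the summed counts of Ppp2ca rests on 1 cell.

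For Ppp2cb the normalized count had a median of 31.8 and a highest value of 285 in 3xTg, and a median of 2.56 and a highest value of 576 in WT, with cells at 0 in both. The mean over cells differed by 0.68, while the summed counts went the other way, at 1660 in 3xTg and 1873 in WT (log2 ratio −0.28, −0.38 to −0.19), which was −0.05 without the cell WT 20. The sign also turned with the run, from −0.38 in the first runs to 1.94 in the second. No direction between genotypes can therefore be given for Ppp2cb.

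A count of both catalytic genes was found in 16 of 33 3xTg cells against 16 of 35 WT cells. Neither was found in 4 of 33 3xTg cells (12.1%, 3.40 to 28.2) and 12 of 35 WT cells (34.3%, 19.1 to 52.2). Among cells with at least 7000 genes these were 2 of 24 (8.33%) and 3 of 19 (15.8%). The catalytic subunit is needed by dividing and non-dividing cells alike, and a count of 0 in 1 cell says only that the transcript was not detectable at this depth. The shares of a gene in the counts of its family given here and further on are not divided by length, so they are compared between genotypes and not between genes. Among the summed catalytic counts Ppp2ca made 59.1% in 3xTg (57.5 to 60.6) and 49.7% in WT (48.1 to 51.4). Without the cell 3xTg 38 the 3xTg share was 50.7%, and without WT 96 the WT share was 44.3%. By run the order of the genotypes turned round, with 70.9% in 3xTg and 39.7% in WT in the first runs, and 40.05% and 57.7% in the second.

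The scaffold gene Ppp2r1a (chr17:20945454-20965905, plus strand) was the most evenly found member, with a count in all 33 3xTg cells and in 34 of 35 WT cells. Its normalized count ran from 3.57 to 1331 in 3xTg with a median of 602, and in WT from 0 to 1387, with a median of 311. The ranges overlapped over nearly their whole length, but the middle cell of 3xTg was higher. The mean over cells was 8.35 ± 2.29 (SD, n = 33) and 7.04 ± 2.89 (SD, n = 35), a difference of 1.31. The summed counts were 21241 (95% exact Poisson interval 20956 to 21529) and 12974 (12752 to 13199), a log2 ratio of 0.60 (0.57 to 0.63). Since nearly every cell had a count, the difference was also 1.10 among cells with a count. It was 0.52 in the first runs, beside 0.48 for the median gene there, and 2.26 in the second, beside 0.62.

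Ppp2r1b (chr9:50856935-50894229, plus strand), the minor scaffold gene, was counted in 18 of 33 3xTg cells against 13 of 35 in WT, the fewest of any member. Its normalized count had a median of 20.3 and a highest value of 187 in 3xTg, and a median of 0 and a highest value of 237 in WT. The difference of the mean over cells was 1.12, but it was −0.25 in the first runs and 3.06 in the second. In the second runs 11 of 12 3xTg cells had a count, against 7 of 15 WT cells, and in the first 7 of 21 against 6 of 17. Of the summed scaffold counts Ppp2r1a made 94.6% in 3xTg (94.3 to 94.9) and 93.99% in WT (93.6 to 94.4), but by run the order of the genotypes turned round here too. The share of Ppp2r1b was 3.38% in 3xTg and 7.42% in WT in the first runs (4.87% without the cell WT 10), and 7.62% and 4.29% in the second.

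The B55 genes did not move as a group. Ppp2r2a (chr14:67014056-67072471, minus strand), which encodes B55 alpha, had a normalized count with a median of 99.5 and a highest value of 379.5 in 3xTg, and a median of 11.1 and a highest value of 897 in WT. A count was present in 28 of 33 3xTg cells against 23 of 35 WT cells. The difference of the mean over cells was 2.05, above that of 96.8% of the 8086 genes, and it was 1.97 in the first runs and 1.68 in the second. The summed counts, 4043 and 2870, differed by 0.38 (0.32 to 0.45) on the log2 scale, much less than the mean over cells, and 25.8% of the WT counts came from the cell WT 5, without which the ratio was 0.78.

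Ppp2r2b (chr18:42645221-43059471, minus strand), which encodes B55 beta, had a normalized count with a median of 151.5 and a highest value of 654 in 3xTg, and a median of 89.2 and a highest value of 513 in WT. It was found in 29 of 33 and 28 of 35 cells, so the share of cells was close. Its difference was 1.39 over all cells, 0.91 in the first runs and 2.35 in the second, and 1.03 among cells with a count. The summed counts were 6730 and 4839, a log2 ratio of 0.37 (0.31 to 0.42). Without the cells that held a count of the microglia gene C1qb the difference of the mean over cells was 0.22, a little under the 0.26 of the median gene in those cells.

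Ppp2r2c (chr5:36868570-36955078, plus strand), which encodes B55 gamma, had a normalized count with a median of 6.88 and a highest value of 198 in 3xTg and a median of 1.71 and a highest value of 208 in WT. The difference of the mean over cells was 0.67, with 0.94 in the first runs and 0.71 in the second, and that of the summed counts −0.22 (−0.34 to −0.10), which became 0.09 without the cell WT 14. The measures thus disagreed in sign.

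Ppp2r2d (chr7:138846386-138883056, plus strand), which encodes B55 delta, was the only member with a lower mean over cells in 3xTg. Its normalized count had a median of 15.4 and a highest value of 135 in 3xTg and a median of 17.7 and a highest value of 543 in WT, and it was found in 21 of 33 and 20 of 35 cells. The difference of the mean over cells was −0.17, close to 0, with −0.39 in the first runs and −0.27 in the second. Without the cell WT 73 the difference over all cells was −0.0060, so its size there rests on 1 cell, which the first runs do not hold. The summed counts were 1233 (1165 to 1304) in 3xTg and 2055 (1967 to 2146) in WT, a log2 ratio of −0.85 (−0.95 to −0.74), and −0.46 without the cell WT 73, which held 25.9% of the WT counts. Relative to the median gene Ppp2r2d was lower in 3xTg in all 12 alternative settings, by 0.44 to 0.96 on the log2 scale.

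The share of Ppp2r2d in the summed B55 counts was 9.39% in 3xTg (8.89 to 9.90) and 18.7% in WT (17.98 to 19.5). Both pairs of runs had the same order, 7.48% against 15.4% in the first and 11.9% against 24.3% in the second. The cell WT 73 gave 42.8% of the Ppp2r2d counts of its run, and without it the share was 15.6% there and 14.6% over all WT cells, still above 3xTg. The share of Ppp2r2b was 51.2% in 3xTg (50.4 to 52.1) and 44.05% in WT (43.1 to 44.99), and that of Ppp2r2a 30.8% and 26.1% (21.2% in WT without the cell WT 5). In the middle cell the Ppp2r2d share was 4.07% in 3xTg and 7.42% in WT, over the 33 cells of each genotype with a B55 count. By run it was close in the first, at 2.59% and 3.02%, and 8.68% and 16.5% in the second. The cell WT 17 gave 30.7% of the Ppp2r2d counts of WT 1 to 22, and without it the summed share there was 11.4%. These intervals cover counting error only, and no test over mice can be made.

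**Figure D3:**
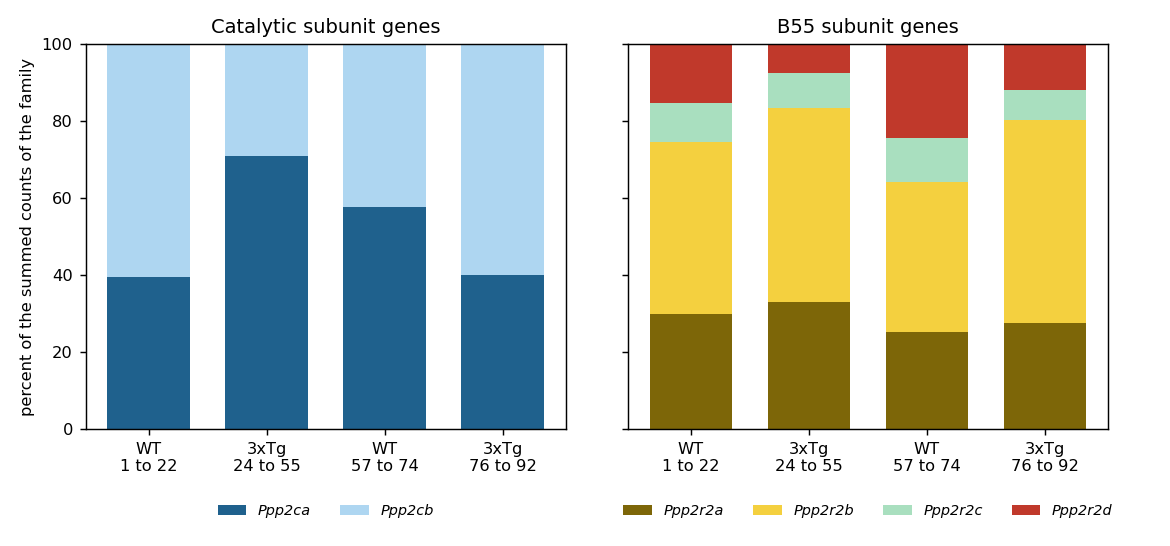
Share of each gene in the summed counts of its family, in percent, for the catalytic genes (left) and the B55 genes (right), by genotype and run of label numbers, with counts not divided by length. Ppp2ca makes 39.7% in WT 1 to 22 and 70.9% in 3xTg 24 to 55 but 57.7% in WT 57 to 74 and 40.05% in 3xTg 76 to 92, while Ppp2r2d (red) is smaller in 3xTg than in WT in both pairs of runs.

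Ppp2r5c (chr12:110447179-110583061, plus strand) encodes B56 gamma, a regulatory subunit that carries PP2A to the nucleus and to kinetochores in dividing cells. Its normalized count had a median of 104 and a highest value of 986 in 3xTg, and a median of 76.6 and a highest value of 877 in WT. It was found in 31 of 33 3xTg cells (93.9%, 79.8 to 99.3) and 24 of 35 WT cells (68.6%, 50.7 to 83.1). The difference was 1.53 over all cells and −0.22 among cells with a count, so it lay in how many cells had a count and not in the level of those that did. The summed counts were 5888 and 4661, a log2 ratio of 0.23 (0.17 to 0.28), with 0.48 without the cell WT 10 and 0.12 without 3xTg 26. By run the difference of the mean over cells was 1.46 in the first and 2.01 in the second. The summed ratio was −0.08 in the first runs and 0.55 in the second, so its sign turned with the run. Among cells with at least 7000 genes the difference was 0.34, beside 0.35 for the median gene.

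Ppp2r4 (chr2:30416050-30447807, plus strand; Ptpa in newer annotation) had the largest difference of the members by both measures. Its product, PTPA, is a prolyl isomerase that activates PP2A by helping its catalytic subunit take up metal ions. The normalized count had a median of 142 and a highest value of 666 in 3xTg, and a median of 2.65 and a highest value of 1020.3 in WT. The highest cell of all, WT 5, was a WT cell, so the ranges overlapped in full, yet the middle cells stood far apart. A count was present in 28 of 33 3xTg cells (84.8%, 68.1 to 94.9) and 19 of 35 WT cells (54.3%, 36.6 to 71.2).

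The mean over cells of Ppp2r4 was 5.95 ± 3.04 (SD, n = 33) in 3xTg against 3.12 ± 3.30 (SD, n = 35) in WT, which differ by 2.82, above that of 99.7% of the 8086 genes. It was 2.19 in the first runs and 3.22 in the second, and 1.25 among cells with a count. The summed counts were 5997 (5846 to 6151) and 2641 (2541 to 2744), a log2 ratio of 1.07 (1.01 to 1.14). The cell WT 5 held 31.9% of the WT counts, and the ratio was 1.59 without it and 0.999 without the cell 3xTg 81. By run the summed counts gave 0.39 in the first and 1.90 in the second, so their size depended on the run while the direction did not. Ppp2r4 was chosen by the study from these cells, and its place among all genes is no independent evidence.

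**Figure D4:**
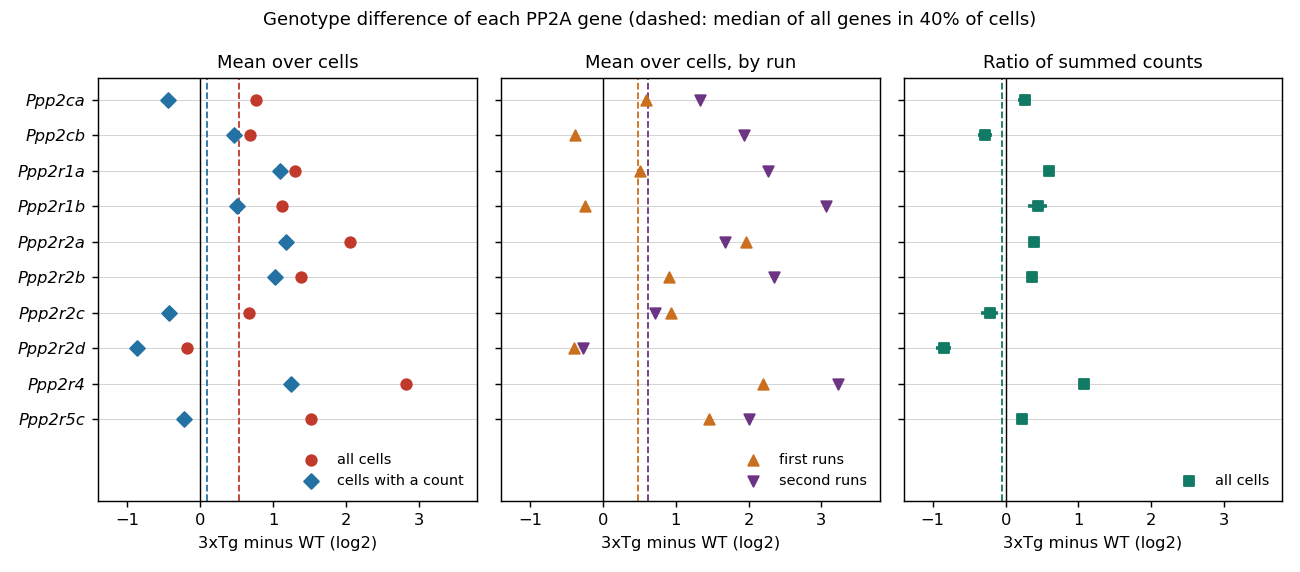
Difference 3xTg minus WT (log2) of each PP2A gene by 3 calculations, with the median of the 8086 genes for the same calculation dashed in the same color. Left, the mean over all cells (circles) and over cells with a count (diamonds). Middle, the mean over cells in the first runs (upward triangles) and second runs (downward triangles). Right, the ratio of summed counts with its exact 95% counting interval. Ppp2r4 is above 1 in all 5 and Ppp2r2d is below 0 in all 5, while Ppp2cb and Ppp2r1b change sign between the runs.

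All 10 members were found in a larger share of 3xTg than of WT cells, as were 71.2% of the 8086 genes. The intervals of the genotypes, which are over cells and not over mice, overlapped for each member. When the cells were brought down to 700471 counts apiece by random thinning (7 shallower cells, 2 of them 3xTg, were dropped), the share was again higher in 3xTg for all 10 members and for 72.4% of genes. The median number of members with a count per cell was 8 in 3xTg and 6 in WT, before and after thinning. All 10 were found in 8 3xTg and 5 WT cells, and at most 5 in 5 and 13 cells.

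The number of members found in a cell followed the number of genes found in it, with a Spearman rho of 0.77 over 68 cells, which share a denominator in that both counts grow with the RNA captured. At least 1 scaffold, 1 catalytic and 1 regulatory member were found together in 29 of 33 3xTg cells (87.9%, 71.8 to 96.6) and 22 of 35 WT cells (62.9%, 44.9 to 78.5). Among cells with at least 7000 genes the numbers were 22 of 24 (91.7%) and 16 of 19 (84.2%). The gap between genotypes was thus 25.02 percentage points over all cells and 7.46 among the cells with more genes, and fewer transcripts per cell and poorer capture cannot be told apart.

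**Figure D5:**
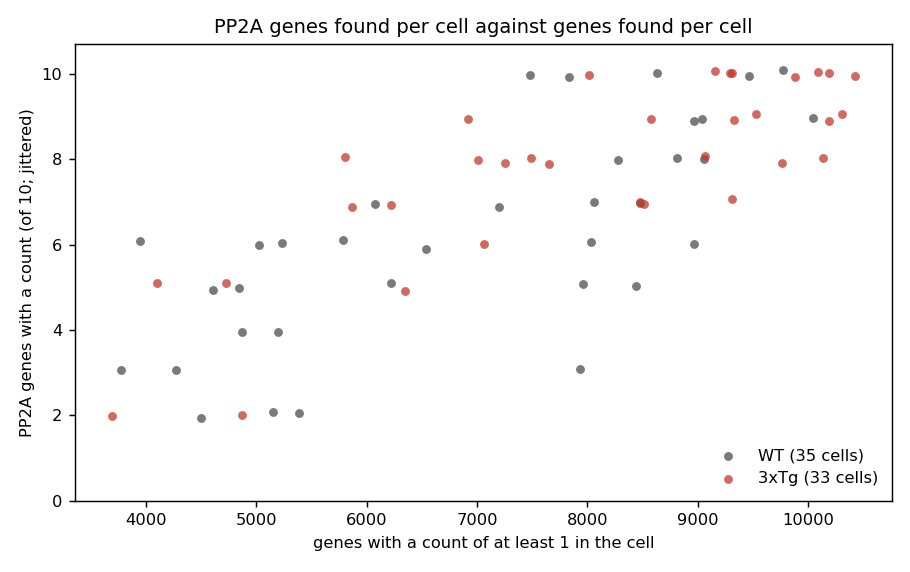
Number of the 10 PP2A genes with a count of at least 1 in a cell (vertical axis, jittered) against the number of all genes with a count in that cell (horizontal axis), for 33 3xTg cells (red) and 35 WT cells (grey). Cells with fewer genes hold fewer PP2A genes in both genotypes.

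Across the 68 cells the levels of Ppp2r1a and Ppp2r4 ran together most closely of the 45 pairs of members, with a Spearman rho of 0.72 over all cells, 0.74 within 3xTg and 0.62 within WT. Next came the B subunit genes Ppp2r2b and Ppp2r5c at 0.64, with 0.81 in 3xTg and 0.47 in WT, and then Ppp2r2b and Ppp2r4 at 0.58. The catalytic gene Ppp2ca was nearly unrelated to Ppp2r4, at 0.02. The median over the pairs was 0.23, and 4 of 45 pairs (8.89%) exceeded 0.5, beside a median of 0.08 and 1.27% over all pairs of the 8086 genes, which hold all 10 members. These are descriptions, since the points share a library and its depth. The levels of the members had rho values of 0.12 (Ppp2ca) to 0.51 (Ppp2r1b) with the number of genes found and of 0.20 (Ppp2r2d) to 0.58 (Ppp2r1a) with the total count.

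Among the other genes of the narrower set, Papola, a poly(A) polymerase, had the pattern most like Ppp2ca (rho 0.54), followed by Usp8, a deubiquitinase (0.51), and Cct8, a chaperonin subunit (0.50), each over 68 cells. Most like Ppp2r4 were Plcxd3 (0.67), Hspa1a, an Hsp70 chaperone (0.65), and Tubb3, the neuronal beta tubulin (0.63). Over all cells the values for Ppp2r4 were higher than those for Ppp2ca. Within 3xTg and WT they were 0.38 and 0.65 for Papola, 0.55 and 0.42 for Usp8 and 0.39 and 0.57 for Cct8. The order of these genes thus differed within each genotype. For Plcxd3, Hspa1a and Tubb3 they were 0.70, 0.66 and 0.62 in 3xTg and 0.67, 0.45 and 0.53 in WT. Within WT the values for Ppp2r4 and Ppp2ca overlapped.

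Regulatory subunits outside the 10 members were listed as well, with 8 of 10 of them found in at least 40% of cells. Of these 8, 4 were at least 2-fold higher in 3xTg by the mean over cells and none was 2-fold lower, with a median of 1.03, beside 28.4% and 0.53 over the 8086 genes. By summed counts 1 of the 8 was at least 2-fold higher, with a median of 0.07, beside 5.22% and −0.04. Ppp2r5e, which encodes B56 epsilon, differed by 2.12 and by 1.59 (1.46 to 1.72) in summed counts, 2102 against 647. It was found in 24 of 33 3xTg against 15 of 35 WT cells, and its difference was 3.12 in the first runs and 0.64 in the second, beside 0.62 for the median gene there. Its summed ratio was 4.53 in the first runs and −0.0055 in the second, so it came from the first runs. Ppp2r5b, for B56 beta, differed by 1.60, Ppp2r3c, for a B″ subunit, by 1.49, and Strn4, for a striatin, by 1.06, while their summed ratios were 0.40, 0.0039 and 0.43. Ppp2r3a and Ppp2r3d, also for B″ subunits and named after their values were seen, went the other way, at −0.50 and −0.47 by the mean over cells and −0.61 and −0.37 in summed counts. In the first and second runs the mean over cells of Ppp2r3a differed by 0.39 and −1.29 and its summed counts by −0.12 and −1.06. For Ppp2r3d these were −0.14 and −0.73 by the mean over cells and 0.23 and −0.90 in summed counts. For both of these genes 1 of the measures thus changed sign between the runs. So did the summed ratios of Ppp2r5b (0.63 and −0.33) and Ppp2r3c (−0.32 and 0.51). That of Strn4 did not (0.98 and 0.31).

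Of 12 listed inhibitors, modifiers and assembly factors, 8 were found in at least 40% of cells, and 4 of the 8 were at least 2-fold higher in 3xTg, with none 2-fold lower and a median of 0.99, beside the same 28.4% over all genes. By summed counts 2 of the 8 were at least 2-fold higher and 4 of 8 above 0, with a median of 0.18, beside 5.22% and −0.04 over all genes. The pair of enzymes that set the methylation of the catalytic tail shown above were both among the 4 past 2-fold by the mean over cells. Ppme1 encodes the methylesterase PME-1, which removes the methyl group, and its normalized count had a median of 238 and a highest value of 998 in 3xTg and a median of 34.8 and a highest value of 494 in WT. It differed by 2.79 by the mean over cells and by 1.26 (1.21 to 1.32) in summed counts, 10151 against 3918. Lcmt1 encodes the methyltransferase that adds the group, and its normalized count had a median of 88.3 and a highest value of 907 in 3xTg and a median of 2.45 and a highest value of 254 in WT.

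Lcmt1 differed by 2.54 by the mean over cells and by 0.92 (0.85 to 0.99) in summed counts, 4963 against 2429. The 3 enzymes that act on the catalytic subunit itself, those of Ppp2r4, Ppme1 and Lcmt1, lay above 99.7%, 99.7% and 99.3% of the 8086 genes by the mean over cells, and enzymes of opposite action were higher alike. In the runs Ppme1 differed by 3.21 and 1.75, and Lcmt1 by 2.30 and 3.27. All 3 are in the study's table of changed genes, so their place is not independent evidence. Anp32a, for an inhibitor of PP2A that is also in that table, differed by 1.96 and by 1.47 (1.33 to 1.61) in summed counts, and Tiprl, for a protein that binds free catalytic subunits, by 1.50 and 0.38.

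Other phosphatases of the same family were listed as well. Of 8 catalytic genes found in at least 40% of cells, 4 were at least 2-fold higher by the mean over cells and none by summed counts, with medians of 0.90 and −0.06. Over the 8086 genes these shares were 28.4% and 5.22% and the medians 0.53 and −0.04, and the PP2A members had medians of 1.21 and 0.31. Ppp1ca and Ppp1cb, catalytic subunits of protein phosphatase 1, differed by 1.19 and 1.27, and Ppp5c, a phosphatase with its own regulatory domain, by 1.11. Their summed ratios were 0.20, 0.47 and 0.56.

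The opposing kinase was set against the phosphatase because both act on the calmodulin of SK channels. Csnk2a1, the main CK2 catalytic gene, differed by 1.25 by the mean over cells and by 0.48 (0.39 to 0.56) in summed counts, 2927 against 1949. The study chose Csnk2a1 from these same cells, so its difference is no independent evidence. Csnk2a2 differed by 0.19 and 0.17, and Csnk2b, the regulatory subunit, by 0.69 and 0.00057. From the first runs to the second Csnk2a2 turned from 0.48 to −0.16 by the mean over cells and from 0.93 to −0.77 in summed counts. Calm3, 1 of the genes for calmodulin, differed by 1.13 by the mean over cells and by 0.20 (0.17 to 0.22) in summed counts. The summed counts of Csnk2a1 and Csnk2a2 were 0.795 of those of Ppp2ca and Ppp2cb in 3xTg and 0.588 in WT, which differ by 0.43 (exact conditional interval 0.33 to 0.54) on the log2 scale. These counts are not divided by length, so only the difference between genotypes is read. It was 1.12 in the first runs and −0.54 in the second, and −0.03 as the mean over cells of the ratio in each cell. Without the cell 3xTg 38 it was 0.76, and without WT 96 it was 0.29. The kinase to phosphatase ratio had no stable direction between genotypes in these cells.

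Cells with a count of the microglia gene C1qb were 10 of 33 in 3xTg and 13 of 35 in WT. Without them the median difference of the members was 0.95 and that of the 8086 genes 0.26, and 4 members were at least 2-fold higher, beside 19.7% of the genes. The differences were then 2.59 for Ppp2r4, 1.61 for Ppp2r2a and 0.96 for Ppp2r1a. Without the 5 3xTg and 5 WT cells in which Aldh1l1, P2ry12, Pvalb or Tmem119 was counted, the median of the members was 1.19 and that of all genes 0.51, and 6 members were at least 2-fold higher, beside 28.7% of the genes. Ppp2r4 then stood at 3.14, Ppp2r2a at 2.15 and Ppp2r2b at 1.15.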

How the data were processed

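Poly-adenylated RNA of 68 patched VTA neurons was sequenced by the authors from directional, PCR-amplified libraries. Reads were trimmed, aligned against RefSeq transcripts of mm10 with Strand NGS 4.0, cleared of duplicates and counted per gene. The authors deposited estimated counts, used here, and log2 normalized values, made with DESeq2's algorithm, which were not used here. Cells had been kept for dopamine markers and against markers of other cells.

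From the counts, size factors were computed by the median of ratios from 787 genes that no cell lacked. The genotype difference was the average of log2(normalized count + 1) over 3xTg cells minus that over WT cells. Counts rounded to whole numbers were summed per genotype for ratios with exact binomial intervals. Shares have Clopper-Pearson and sums exact Poisson intervals, all at 95%. Reads carry no stated molecular identifiers, so the intervals of sums, ratios and shares of counts cover counting error only. Those of shares of cells take the cells as independent draws and tell nothing of mice. No 2 cells had identical counts, and every value column matched a sample.

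Cells are not replicates and no test was made. The members and lists were chosen with earlier results of these data known. The named genes are the 10 members, the CK2 genes and dopamine markers, the listed genes past 2-fold by the mean over cells with summed counts in the same direction (at most 6 a list), and for Ppp2ca and Ppp2r4 the 3 most correlated genes. The inhibitor list held 14 symbols, 3 of them names of 1 gene (Cip2a, Kiaa1524 and C330027C09Rik), which the table holds under the last, so 12 genes were found. The lists of endothelial and GABA neuron markers are given by summed counts, which for 4 GABA markers were 29.1 CPM in 3xTg and 45.6 in WT. The filter at 40% of all cells, the cells without C1qb, the alternative lengths and the shares without a gene's highest cell were chosen after seeing the data.

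Alternatives were TMM factors, CPM values, pseudocounts of 0.1 and 10, thinned cells, summed counts, subsets of cells, runs, other filters and leaving out each cell. Coding sequences were read from GENCODE M21 and paralogs aligned globally. The calculations were tested on simulated data. Python 3.11.15, numpy 2.4.6, scipy 1.17.1, pandas 2.3.3, matplotlib 3.10.9, and R 4.3.3 with edgeR 4.0.16 were used.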

Additional observations from a re-analysis of the deposited data

How the results depend on the processing

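6 members were at least 2-fold higher by the mean over cells, beside 28.4% of the 8086 genes. The count was 3 in the first runs, where 29.3% of genes passed, so the members were there at the background. It was 3 with a pseudocount of 10 (6.89% of genes), 9 with one of 0.1 (42.6%), 8 in the second runs (37.5%), 1 by summed counts (5.22%) and 5 or 6 when each cell was left out in turn (25.9% to 31.7%). It was 4 among cells with at least 7000 genes (23.1%), among cells with a count of the gene (6.83%) and without cells that held C1qb (19.7%), and 6 in the other 4 settings (21.2% to 28.7%). The median difference of the members, 1.21, was 1.55 with a pseudocount of 0.1 and 0.68 with one of 10, 0.31 by summed counts, 0.72 among cells with at least 7000 genes, 0.75 in the first runs, 1.97 in the second and 0.48 among cells with a count of the gene. With TMM factors, CPM values, thinned cells and either subset without cells that held markers of other cell types it stayed between 0.95 and 1.22, and between 1.10 and 1.36 when each cell was left out.

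Below 0 were Ppp2r1b at −0.25 and Ppp2cb at −0.38 in the first runs, Ppp2cb at −0.28 and Ppp2r2c at −0.22 by summed counts, and Ppp2ca at −0.44, Ppp2r2c at −0.43 and Ppp2r5c at −0.22 among cells with a count. Ppp2r1a, Ppp2r2a, Ppp2r2b and Ppp2r4 were above 0 and Ppp2r2d below 0 in all 12 settings. The CK2 to PP2A ratio, 0.43, was 1.12 in the first runs, −0.54 in the second, 0.57 among cells with at least 7000 genes, 0.28 in thinned cells, 0.22 for Csnk2a1 over Ppp2ca alone, −0.030 as the mean over cells, 0.26 without cells that held C1qb, and 0.29 to 0.76 when each cell was left out. The cause of these shifts was not tested. No paired analysis was possible because the genotypes share no replicate numbers. At this depth the middle WT cell had no count of Ppp2r1b, and no direction can be read for single cells.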

Other observations

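The list of Ppp2r4, Ppme1 and Lcmt1, enzymes that act on the PP2A catalytic subunit, was put together after their values were seen. Within the inhibitor list Set, which encodes an inhibitor of PP2A, was also named after its values were seen. Its difference was 0.08 by the mean over cells and −0.15 (−0.19 to −0.11) in summed counts, and it was counted in all 33 3xTg cells and in 34 of the WT cells.

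In 4 cells almost no PP2A transcript was counted. All 10 members summed to 2.57 CPM in WT 9, 5.29 in WT 72, 7.15 in WT 11 and 10.02 in 3xTg 24, and the next cell, 3xTg 31, had 202. The median cell had 1397 CPM in 3xTg and 978 in WT, and the highest, WT 5, had 3726. The 4 cells held 3695 to 5390 genes with a count, so none of them is among the cells with at least 7000 genes, for which values are given above.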
